A study of Mus musculus with 12 samples.

Results

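Endothelial cells line every vessel of the heart, and the 34 genes described here are a list of genes known for their expression in those cells. The members were taken from 13865 genes that had a normalised value of at least 10 in at least 3 of 12 libraries, and all 34 passed that filter, with at least 10 in each of the 12 libraries. RNA was sequenced from ventricles of mouse hearts labelled LCHADD or WT, in 4 groups of 3 libraries each, namely LCHADD females, LCHADD males, WT females and WT males. LCHADD is the usual abbreviation for deficiency of long-chain 3-hydroxyacyl-CoA dehydrogenase, an activity of the mitochondrial enzyme complex that shortens long-chain fatty acids. The labels give no age or strain and name no treatment, and the alteration of the gene is not described in them. They also do not say that each library came from a separate animal, so the p-values measure the spread between these libraries.

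Blood vessels are built and kept by a few ligand and receptor systems. Vascular endothelial growth factors act through Kdr and Flt1 on sprouting and permeability, and angiopoietins act through Tek, with Tie1 as its partner, on vessel stability. Cadherin and claudin junctions hold the cells together, transcription factors of the ETS and SoxF families keep up their gene expression, and in heart muscle a dense capillary bed carries fatty acids and oxygen to the cardiomyocytes.

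The libraries held 15613668 to 23174936 reads assigned to genes. Mitochondrially encoded genes took 31.0% to 37.9% of those reads in LCHADD libraries and 27.5% to 32.7% in WT libraries. Hadha, which carries the deficient activity, had 23343 to 28083 normalised reads in LCHADD libraries and 21430.0 to 25845 in WT libraries, and a level does not check a change of sequence. Cardiomyocyte markers were abundant, with Myh6, the main myosin heavy chain of adult mouse heart, at 202890 to 377718 normalised reads in LCHADD libraries and 365627 to 419854 in WT libraries. Of 6 atrial markers, Myl7 and Sln stayed below 10 in every library and 4 were tested. Of those, Bmp10 rose (71.1 ± 25.4 normalised reads in LCHADD and 3.22 ± 1.67 in WT, SD, n = 6 each; log2 change 4.10, limma adjusted p = 2.9e-08) and Dkk3 rose (log2 change 0.64, adjusted p = 0.011), while Nppa and Myl4 did not pass. LCHADD female 2 stood furthest from its group, with a root mean square log2 difference of 0.54 from the mean of its group mates over the tested genes, against 0.33 to 0.47 for the other 11 libraries.

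The endothelial genes were lower in LCHADD ventricles. Of the 34 members, 23 fell and 0 rose in the mean of both sexes (limma on all 13865 genes, adjusted p by Benjamini-Hochberg under 0.05), where 20.6% of all tested genes fell and 20.3% rose. EdgeR and DESeq2 also called 23 members lower each, where 20.8% of tested genes fell in edgeR and 20.1% in DESeq2. The members' median log2 change was -0.35, with quartiles of -0.44 and -0.20, beside a median of -0.0019 and quartiles of -0.24 and 0.23 over all tested genes. Summed over the 34 members, the normalised reads were 30919.9, 30475 and 33253 in LCHADD females and 30751, 29722 and 34036 in LCHADD males, against 38889, 37634 and 40223 in WT females and 37895, 39485 and 39242 in WT males. Each of the 6 LCHADD sums lay below each of the 6 WT sums. In ventricle RNA, fewer endothelial cells and less of this RNA per cell cannot be told apart.

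Most of the changes were modest. Only Tek, at -0.65, and Lyl1, at -0.63, passed the test and were at least 1.5-fold lower, which 7.46% of all tested genes did. The log2 changes of the members ran from -0.65 for Tek to 0.04 for Sox18, with an SD of 0.16 among members and a median SE of 0.083 for a single member. A negative log2 change was measured for 33 of 34 members, and 31 were negative in females and also in males. All 6 LCHADD libraries lay below all 6 WT libraries for 12 members, namely Pecam1, Cdh5, Tek, Tie1, Esam, Ly6c1, Cav1, Robo4, Mmrn2, Ramp2, Rasip1 and Icam2, and 9.91% of all tested genes separated in that direction. Of the 23 calls, 20 held in each of 23 alternative settings, while Eng and Emcn did not pass in 5 each and Lyl1 in 2. Without LCHADD female 2, 25 members fell in the mean of both sexes, the 23 and also Kdr and Flt1.

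**Figure D1:**
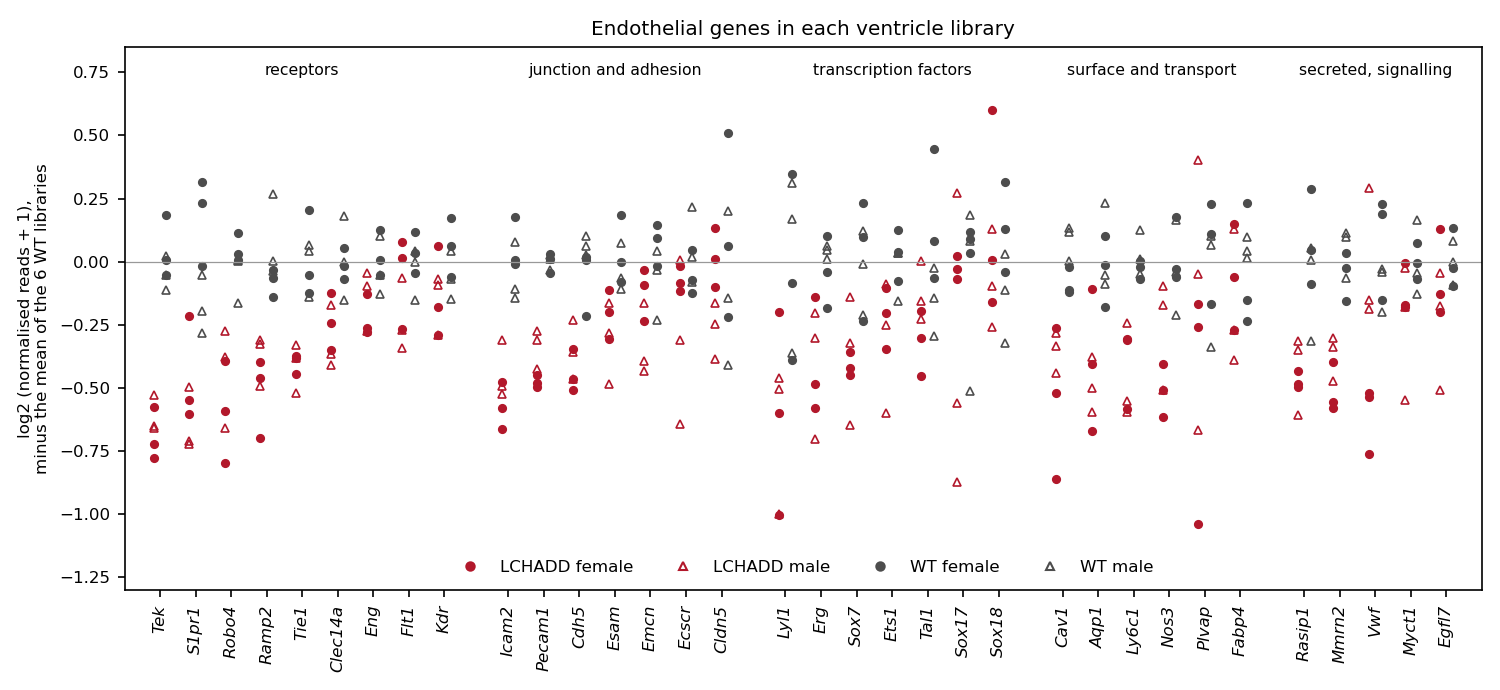
Log2 (normalised reads + 1) of each endothelial gene in each library, minus the mean of the 6 WT libraries, with genes grouped by role and ordered by change. Red points are LCHADD libraries and grey points WT libraries, circles are females and triangles males; Tek, Tie1, Pecam1 and Mmrn2 separate the genotypes, and Kdr, Flt1, Cldn5 and Sox18 overlap.

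Markers of several other cell types of the ventricle were lower as well in the mean of both sexes, where 20.6% of all tested genes fell. Of 8 cardiomyocyte markers 6 fell (median log2 change -0.44), and their summed reads were 521027 to 909746 in LCHADD libraries and 961717 to 1036339 in WT libraries. All 7 tested fibroblast markers fell (median -0.46), and their sums were 12085 to 17292 in LCHADD libraries and 21636 to 23982 in WT libraries. Of 8 tested markers of pericytes and smooth muscle 7 fell (median -0.33), with sums of 12983 to 19176 in LCHADD libraries and 18362 to 20680.3 in WT libraries. By sex, 7 cardiomyocyte markers fell in females (median -0.63) and 1 in males (median -0.21). Fibroblast markers gave 7 falls in females and 3 in males, and markers of pericytes and smooth muscle 3 and 4. Over all tested genes, 17.2% fell in females and 7.77% in males. The difference between the sexes passed for no gene of these lists in limma. None of 7 macrophage markers passed in the mean of both sexes (median 0.09). In females Cd68 (0.66) and Adgre1 (0.61) rose, where 16.7% of all tested genes rose. The sums of the 7 macrophage markers were 1512 to 1928 in LCHADD libraries and 1493 to 2009 in WT libraries. No gene of these lists was at 0 in all libraries, and the part of these cells and of the mitochondrial share in the endothelial result was not tested. With libraries scaled by reads of nuclear genes alone, 21 members fell and their median log2 change was -0.31, where the median over all genes was 0.04.

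Among the members, levels per kilobase of merged exon spanned a wide range. Aqp1, a water channel, had the highest level, at 1387 normalised reads per kilobase in LCHADD ventricles and 1879 in WT ventricles. Fabp4, a fatty acid carrier, followed at 1018 per kilobase in LCHADD and 1100.4 in WT, and Cav1, the coat protein of caveolae, at 627 in LCHADD and 851 in WT. Cdh5, the cadherin of endothelial junctions, stood at 476 per kilobase in LCHADD and 626 in WT. The transcription factor genes Tal1, at 12.3 in LCHADD and 14.5 in WT, and Sox17, at 13.9 in LCHADD and 15.8 in WT, were the lowest.

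Of the 9 receptors, 7 fell and both receptors of vascular endothelial growth factor did not pass, with a median log2 change of -0.40. Tek (ENSMUSG00000006386), the angiopoietin receptor also called Tie2, had 509.6, 587 and 530.3 normalised reads in LCHADD females and 553, 607 and 558 in LCHADD males, against 995, 845 and 879 in WT females and 845, 810.1 and 888 in WT males. The genotypes did not overlap, and the highest LCHADD library, at 607, was well below the lowest WT library, at 810.1. Its log2 change was -0.65 ± 0.06 (SE; limma adjusted p = 1.3e-06), the most negative of the 34 members. Tie1 (ENSMUSG00000033191), the orphan receptor that pairs with Tek, had 1041, 988 and 1035 normalised reads in LCHADD females and 939, 1035 and 1072 in LCHADD males, against 1301, 1236 and 1551 in WT females and 1388, 1224 and 1411 in WT males. Its LCHADD libraries were also all below its WT libraries, and the log2 change was -0.40 ± 0.07 (adjusted p = 1.8e-04).

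S1pr1 (ENSMUSG00000045092), the receptor for sphingosine-1-phosphate that tightens the endothelial barrier, had 714, 688 and 900.0 normalised reads in LCHADD females and 633, 639 and 741 in LCHADD males, against 1031, 1226 and 1302 in WT females and 859.6, 1007 and 912 in WT males. LCHADD female 3 exceeded the lowest WT male, and the other 5 LCHADD libraries lay below all WT libraries. The log2 change of S1pr1 was -0.55 ± 0.08 (adjusted p = 8.9e-05). Robo4, a roundabout receptor of endothelium, averaged 376 ± 51.3 normalised reads in LCHADD ventricles and 535 ± 32.3 in WT ventricles (SD, n = 6 each), a log2 change of -0.51 ± 0.08 (adjusted p = 1.8e-04). Ramp2, which makes the calcitonin receptor-like receptor Calcrl respond to adrenomedullin, averaged 232 ± 22.3 in LCHADD and 317 ± 32.8 in WT, a log2 change of -0.45 ± 0.08 (adjusted p = 5.3e-04). Smaller falls were measured for Clec14a, a lectin-like surface protein, at -0.28 ± 0.08 (adjusted p = 0.011), and for endoglin (Eng), a co-receptor of the transforming growth factor beta family, at -0.18 ± 0.06 (adjusted p = 0.025). The call of Eng was lost, at adjusted p-values of 0.053 to 0.089, without LCHADD female 1, LCHADD male 2, WT female 1 or WT male 3 and with scaling by nuclear genes.

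Kdr (ENSMUSG00000062960), the main signalling receptor for vascular endothelial growth factor, had 2856, 3376 and 2642 normalised reads in LCHADD females and 3036, 2644 and 3078 in LCHADD males, against 3370.4, 3095 and 3647 in WT females and 3085, 2917 and 3328 in WT males. The genotypes overlapped, with LCHADD female 2 above all WT libraries but WT female 3, and the log2 change of -0.14 ± 0.07 did not pass (adjusted p = 0.11). Without LCHADD female 2 the change of Kdr was -0.19 and passed (adjusted p = 0.012). Flt1 (ENSMUSG00000029648), which binds the same ligand and limits its action on Kdr, had 1418, 1801 and 1722 normalised reads in LCHADD females and 1346, 1413 and 1629.6 in LCHADD males, against 1748, 1851 and 1653 in WT females and 1538, 1706 and 1758 in WT males. Its groups overlapped too, and its change of -0.14 ± 0.07 did not pass (adjusted p = 0.12), but was -0.18 and passed without LCHADD female 2 (adjusted p = 0.036). The ratio of Tek to Kdr reads, chosen after the values were seen, was 0.174 to 0.230 in LCHADD libraries and 0.241 to 0.295 in WT libraries. That ratio did not overlap between the genotypes. The ratio of Tek to Tie1 reads overlapped, at 0.489 to 0.594 in LCHADD libraries and 0.567 to 0.765 in WT libraries. So did the ratio of Vwf to Pecam1 reads, at 0.451 to 0.922 in LCHADD libraries and 0.485 to 0.677 in WT libraries. These ratios were not tested, and the share of all gene pairs that separate in this way was not counted.

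**Figure D2:**
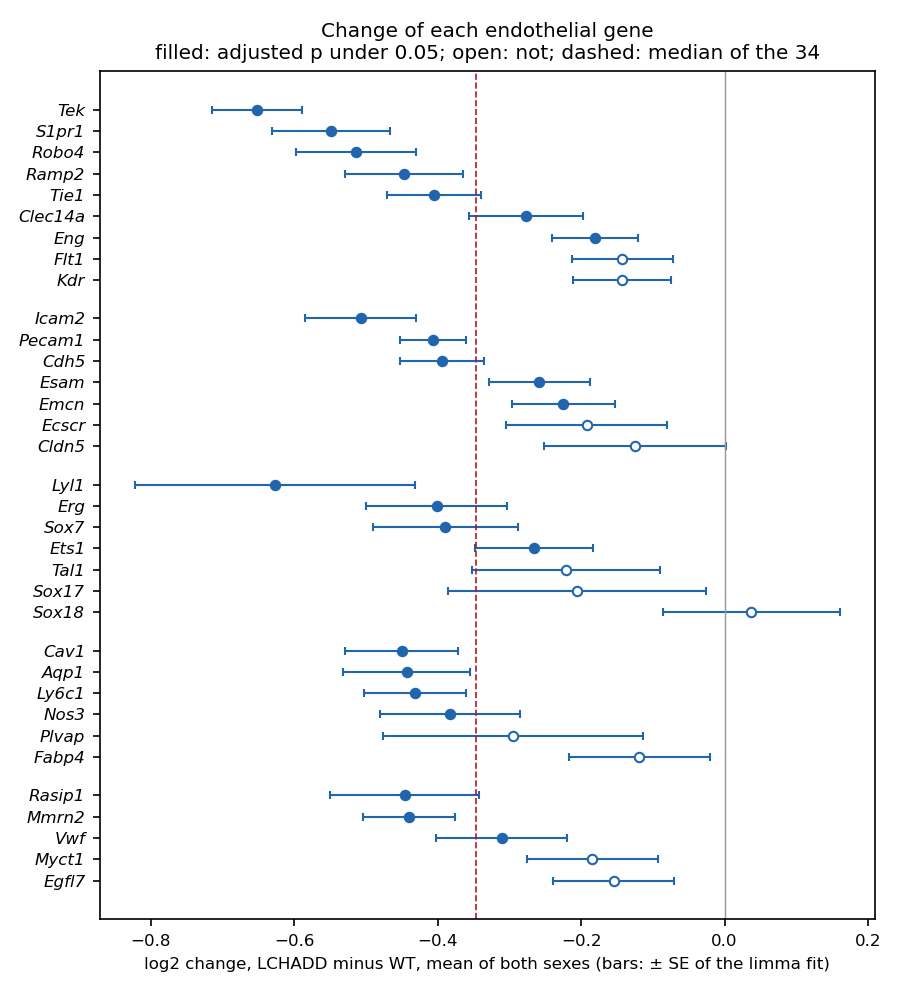
Log2 change of each endothelial gene, LCHADD minus WT in the mean of both sexes, with bars of ± 1 SE from the limma fit; genes run from receptors at the top through junction and adhesion genes, transcription factors and surface and transport genes to secreted and signalling genes. Filled points passed at an adjusted p under 0.05 and open points did not; the dashed line is the members' median of -0.35.

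The promoters of these receptors are shown because Tek, Tie1 and Robo4 fell, while Kdr and Flt1 passed only without LCHADD female 2 (or without it and WT female 3), and because ETS factors, of which Erg and Ets1 are members, bind a GGAA core in many endothelial promoters. Each run is the 250 bases before the transcription start, 5′ to 3′ on the gene's strand, from RefSeq on build GRCm38.p6, with matches to AGGAAG or CCGGAA on either strand in capitals. The windows are chr4:94739039-94739288 on the plus strand for Tek, chr4:118489850-118490099 on the minus strand for Tie1, chr9:37401722-37401971 on the plus strand for Robo4, chr5:75978456-75978705 on the minus strand for Kdr and chr5:147726012-147726261 on the minus strand for Flt1.
Tek: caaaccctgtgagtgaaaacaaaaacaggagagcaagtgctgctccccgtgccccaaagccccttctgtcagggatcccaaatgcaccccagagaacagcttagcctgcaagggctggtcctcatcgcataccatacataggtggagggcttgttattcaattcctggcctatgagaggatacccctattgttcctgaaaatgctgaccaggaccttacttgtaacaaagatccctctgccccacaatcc
Tie1: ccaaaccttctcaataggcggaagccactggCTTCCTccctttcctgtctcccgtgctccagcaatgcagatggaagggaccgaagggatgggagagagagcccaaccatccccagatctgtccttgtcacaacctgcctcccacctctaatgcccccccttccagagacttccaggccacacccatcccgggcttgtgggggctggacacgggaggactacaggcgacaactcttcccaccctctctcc
Robo4: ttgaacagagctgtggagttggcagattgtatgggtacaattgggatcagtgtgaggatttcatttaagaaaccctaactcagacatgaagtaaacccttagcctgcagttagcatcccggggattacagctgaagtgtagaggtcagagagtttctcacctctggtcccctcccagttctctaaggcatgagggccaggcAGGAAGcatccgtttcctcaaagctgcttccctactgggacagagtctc
Kdr: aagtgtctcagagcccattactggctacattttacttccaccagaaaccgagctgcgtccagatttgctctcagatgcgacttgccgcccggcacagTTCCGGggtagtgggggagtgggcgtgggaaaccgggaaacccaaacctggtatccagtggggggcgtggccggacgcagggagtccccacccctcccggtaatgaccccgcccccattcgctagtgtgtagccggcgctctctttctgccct
Flt1: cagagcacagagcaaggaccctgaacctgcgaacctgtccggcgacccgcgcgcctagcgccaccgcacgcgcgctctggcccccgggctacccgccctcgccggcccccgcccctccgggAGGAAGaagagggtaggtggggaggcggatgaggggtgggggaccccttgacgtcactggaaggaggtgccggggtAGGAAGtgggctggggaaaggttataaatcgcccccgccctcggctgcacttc
Tek held 0 matches, Tie1, Robo4 and Kdr 1 each and Flt1 2. A GGAA core outside these motifs is not marked or counted. The Tek window holds such cores on the other strand, and the Tie1 window holds some on the shown strand. Both motifs share the GGAA core, and a GGAA core can match only one of them, since the base before it differs. Among the 18 members with a promoter in the table, 12 held a match (66.7%), beside 11202 of 27025 genes (41.5%). Counted by window, since some genes have several starts, 52% of the members' 25 windows held a match, beside 38.2% of 32851 windows. A match was found for 9 of the 12 members with a promoter that fell and for 3 of the 6 that did not pass. The matches describe letters in these windows and say nothing of whether a factor was bound.

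Of the 7 junction and adhesion genes, 5 fell, with a median log2 change of -0.26. Pecam1 (ENSMUSG00000020717), the adhesion protein CD31, had 1605, 1588 and 1644 normalised reads in LCHADD females and 1807, 1669 and 1852 in LCHADD males, against 2287, 2175 and 2262 in WT females and 2283, 2189.8 and 2259 in WT males. The genotypes did not overlap in either sex, and the log2 change was -0.41 ± 0.05 (adjusted p = 6.3e-06). Cdh5 (ENSMUSG00000031871), the cadherin that joins endothelial cells, had 1902, 2067 and 1847 normalised reads in LCHADD females and 2051, 1900.5 and 2235 in LCHADD males, against 2636, 2259 and 2657 in WT females and 2737, 2674 and 2819 in WT males. The highest LCHADD library, LCHADD male 3, was just below the lowest WT library, WT female 2, and the log2 change was -0.39 ± 0.06 (adjusted p = 7.9e-05). Icam2 (ENSMUSG00000001029), a constitutive ligand of leukocyte integrins, had 219.8, 193 and 205 normalised reads in LCHADD females and 213, 218 and 247 in LCHADD males, against 308, 347 and 305 in WT females and 284, 323 and 278 in WT males. Its libraries separated by genotype, with a log2 change of -0.51 ± 0.08 (adjusted p = 1.1e-04).

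Esam, an adhesion molecule of tight junctions, fell by 0.26 ± 0.07 on the log2 scale (adjusted p = 0.0091), and endomucin (Emcn), a sialomucin of capillaries and veins, by 0.22 ± 0.07 (adjusted p = 0.02). Emcn missed the threshold, at 0.053 to 0.063, without LCHADD female 1, LCHADD male 1, WT female 2 or WT male 3 and with scaling by nuclear genes. Cldn5 (ENSMUSG00000041378), the main claudin of endothelial tight junctions, had 191, 207 and 225 normalised reads in LCHADD females and 173, 157 and 183 in LCHADD males, against 176, 214 and 293 in WT females and 236, 154 and 186 in WT males. Those values overlapped fully between the genotypes, and the change of -0.13 ± 0.13 did not pass (adjusted p = 0.46). Ecscr (ENSMUSG00000073599), a surface protein of migrating endothelial cells, had 131, 125 and 123 normalised reads in LCHADD females and 133, 84.7 and 107 in LCHADD males, against 126, 137 and 122 in WT females and 154, 134 and 125 in WT males. Only LCHADD males 2 and 3 were below all WT libraries, and the change of -0.19 ± 0.11 did not pass (adjusted p = 0.19). Platelets also carry Pecam1, and none of the 4 tested platelet markers passed in the mean of both sexes or in females, while Ppbp rose in males (log2 change 1.57, adjusted p = 0.045, beside -0.57 in females). The list sums were 175 to 215 in LCHADD libraries and 176 to 229 in WT libraries; their part in Pecam1 was not tested.

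Of the 7 transcription factors, 4 fell, with a median log2 change of -0.27. Erg (ENSMUSG00000040732), an ETS factor that keeps endothelial genes on, had 289.8, 272 and 369 normalised reads in LCHADD females and 329, 249.6 and 353 in LCHADD males, against 394, 358 and 436 in WT females and 424, 409 and 419 in WT males. LCHADD female 3 was above WT female 2 and the other 5 LCHADD libraries were below all WT libraries, and the log2 change was -0.40 ± 0.10 (adjusted p = 0.0043). Sox7 (ENSMUSG00000063060), of the SoxF family, had 273, 279 and 292 normalised reads in LCHADD females and 299, 238 and 339 in LCHADD males, against 318, 439.6 and 399.7 in WT females and 323, 407 and 372 in WT males. LCHADD male 3 was the only LCHADD library within the WT range, and the log2 change was -0.39 ± 0.10 (adjusted p = 0.0064). Ets1 (ENSMUSG00000032035), a further ETS factor, had 922, 989 and 836 normalised reads in LCHADD females and 893, 701 and 1000.3 in LCHADD males, against 1092, 1007 and 1160.5 in WT females and 1089, 953 and 1088 in WT males. The groups overlapped in LCHADD female 2 and LCHADD male 3, and the log2 change was -0.27 ± 0.08 (adjusted p = 0.018). Lymphocytes also express Ets1, and 5 of their 8 markers were below the filter. Of the 3 tested, Cd79a, a B cell gene, fell (7.73 ± 4.69 normalised reads in LCHADD and 15.3 ± 4.15 in WT, SD, n = 6 each; log2 change -1.05, adjusted p = 0.016), and the list sums were 36.4 to 58.4 in LCHADD libraries and 38.8 to 72.8 in WT libraries; their part in Ets1 was not tested.

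The other SoxF genes did not pass. Sox18 (ENSMUSG00000046470), which acts in lymphatic and blood vessel growth, had 309, 468 and 276 normalised reads in LCHADD females and 288, 258 and 337 in LCHADD males, against 299.7, 383 and 337 in WT females and 246, 314 and 285 in WT males. The highest value of all was in LCHADD female 2, and the log2 change was 0.04 ± 0.12 (adjusted p = 0.84), with a value of -0.076 when that library was left out. Sox17 (ENSMUSG00000025902), an arterial factor, had 75.5, 72.8 and 70.8 normalised reads in LCHADD females and 50.02, 40.1 and 89.9 in LCHADD males, against 79.0, 80.6 and 76.2 in WT females and 84.7, 51.8 and 78.7 in WT males. The LCHADD males alone spanned from below to above all WT libraries, and the change of -0.21 ± 0.18 did not pass (adjusted p = 0.39). Lyl1, a basic helix-loop-helix factor of blood and endothelium, averaged 35.0 ± 7.80 normalised reads in LCHADD ventricles and 54.7 ± 12.3 in WT ventricles (SD, n = 6 each) and fell by 0.63 ± 0.19 on the log2 scale (adjusted p = 0.018), with 0.054 without WT female 2 and 0.0502 without WT male 1. Its relative Tal1 averaged 54.0 ± 5.78 in LCHADD and 63.6 ± 12.0 in WT, a change of -0.22 ± 0.13 that did not pass (adjusted p = 0.19).

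Of the 6 surface and transport genes, 4 fell, with a median log2 change of -0.41. Ly6c1 (ENSMUSG00000079018), a lipid-anchored surface protein of mouse capillary endothelium, had 1094, 902 and 1089 normalised reads in LCHADD females and 893, 922 and 1141 in LCHADD males, against 1287, 1353 and 1333 in WT females and 1307, 1472 and 1361 in WT males. The genotypes did not overlap, and the log2 change was -0.43 ± 0.07 (adjusted p = 2.1e-04). Cav1 (ENSMUSG00000007655), the coat protein of caveolae, had 2037, 1612 and 2436 normalised reads in LCHADD females and 2318, 2157 and 2407 in LCHADD males, against 2704, 2695 and 2881 in WT females and 2931, 3174 and 3208 in WT males. LCHADD female 2 was the lowest library and none reached the WT range, with a log2 change of -0.45 ± 0.08 (adjusted p = 3.5e-04). Aqp1 (ENSMUSG00000004655), the water channel, had 3710.4, 3088 and 4559 normalised reads in LCHADD females and 3250.4, 3780.4 and 3480.0 in LCHADD males, against 5270.4, 4866 and 4344 in WT females and 4626, 5782 and 4733 in WT males. LCHADD female 3 lay within the WT range, and the log2 change was -0.44 ± 0.09 (adjusted p = 0.001).

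Nos3, the endothelial nitric oxide synthase, averaged 179 ± 26.2 normalised reads in LCHADD ventricles and 233 ± 23.9 in WT ventricles (SD, n = 6 each), a log2 change of -0.38 ± 0.10 (adjusted p = 0.0056). Fabp4 (ENSMUSG00000062515), which carries fatty acids through capillary endothelium, had 4709.9, 4070.1 and 5453 normalised reads in LCHADD females and 4072, 3748 and 5370.2 in LCHADD males, against 4422, 4173 and 5769.9 in WT females and 5056, 5256 and 4961 in WT males. LCHADD and WT libraries overlapped widely, and the change of -0.12 ± 0.10 did not pass (adjusted p = 0.36). Plvap (ENSMUSG00000034845), the diaphragm protein of fenestrae and caveolae, had 142, 151 and 82.4 normalised reads in LCHADD females and 165, 226 and 107 in LCHADD males, against 199.5, 184 and 151 in WT females and 178, 134 and 182 in WT males. LCHADD libraries held the lowest and the highest value, and the change of -0.30 ± 0.18 did not pass (adjusted p = 0.21).

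Some of these genes are also expressed outside endothelium. Red cells use Aqp1 and Tal1, and all 5 tested red cell markers fell (median log2 change -1.37), with list sums of 1915 to 4489 in LCHADD libraries and 6975 to 12561 in WT libraries. Adipocytes use Fabp4, Cav1 and Aqp1, and 5 of the 7 adipocyte markers, Adipoq, Plin1, Lep, Retn and Cidec, were below the filter. Of the 2 tested, Cfd fell (1.19 ± 1.89 normalised reads in LCHADD and 10.6 ± 12.5 in WT, SD, n = 6 each; log2 change -1.77, adjusted p = 0.024) and Lipe did not pass, and the list sums, mostly from Lipe, were 351 to 608 in LCHADD libraries and 327 to 824 in WT libraries. The part of red cells and adipocytes in the values of these members was not tested.

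Of the 5 secreted and signalling genes, 3 fell, with a median log2 change of -0.31. Mmrn2 (ENSMUSG00000041445), a matrix glycoprotein of vessels and a partner of Clec14a, had 496, 489 and 555 normalised reads in LCHADD females and 578, 527 and 592 in LCHADD males, against 749, 655 and 719 in WT females and 782, 698 and 789.6 in WT males. The genotypes did not overlap, and the log2 change was -0.44 ± 0.06 (adjusted p = 6.6e-05). Rasip1 (ENSMUSG00000044562), a small GTPase effector needed for vessel lumens, had 117, 113 and 112 normalised reads in LCHADD females and 124, 127 and 104 in LCHADD males, against 149, 193 and 163 in WT females and 164, 159 and 127 in WT males. LCHADD male 2 and WT male 3 were almost level, at the edge of groups that otherwise separated, and the log2 change was -0.45 ± 0.10 (adjusted p = 0.003). Egfl7 (ENSMUSG00000026921), a secreted regulator of vessel shape, had 623, 593 and 745 normalised reads in LCHADD females and 602, 479 and 660.0 in LCHADD males, against 637, 669 and 746 in WT females and 638, 721 and 681 in WT males. In all, 4 LCHADD libraries were below all WT libraries, and the change of -0.15 ± 0.08 did not pass (adjusted p = 0.16). Myct1 (ENSMUSG00000046916), a membrane protein of endothelium, had 338, 301 and 299 normalised reads in LCHADD females and 299, 231 and 333 in LCHADD males, against 338, 357 and 323 in WT females and 329, 379.8 and 310.5 in WT males. LCHADD female 1 and LCHADD male 3 were within the WT range, and the change of -0.18 ± 0.09 did not pass (adjusted p = 0.12; 0.047 without LCHADD male 3).

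Vwf (ENSMUSG00000001930), which encodes von Willebrand factor, the carrier that tethers platelets to the vessel wall, had 868, 878 and 742 normalised reads in LCHADD females and 1132, 1539 and 1104 in LCHADD males, against 1436, 1473 and 1134 in WT females and 1232, 1224 and 1096 in WT males. The 3 LCHADD females lay below all WT libraries, and LCHADD male 2 was the highest library of the 12. The log2 change was -0.31 ± 0.09 in the mean of both sexes (adjusted p = 0.013), -0.69 ± 0.13 in females (adjusted p = 7.6e-04) and 0.07 ± 0.13 in males (adjusted p = 0.75). The difference between these changes, females minus males, was -0.77 and did not pass over all genes in limma (adjusted p = 0.18). Platelets also hold Vwf, and their markers are given beside Pecam1. Ppbp, a low gene (mean 12.0 normalised reads in LCHADD and 9.02 in WT), had log2 changes of -0.57 in females and 1.57 in males. Itga2b was at -0.71 in females and 0.46 in males. Pf4 went the other way, at 0.30 in females and -0.18 in males, as did Gp1ba, at -0.25 in females and -0.33 in males. The difference between the sexes did not pass for Vwf or for any tested platelet marker in limma. The part of platelets in Vwf was not tested.

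In each sex taken alone, fewer members passed. In females 17 of 34 members fell and 0 rose, where 17.2% of all tested genes fell and 16.7% rose, and the members' median log2 change was -0.37. In males 13 fell and 0 rose, where 7.77% of all tested genes fell and 7.71% rose, and the median was -0.33. In both sexes 12 members passed, 5 passed in females alone, 1 in males alone (Erg) and 5 in the mean of both sexes only; such counts do not test a difference between the sexes. The difference between the sexes passed for none of the 34 members in limma, where 0.00721% of all tested genes passed. At an unadjusted limma p under 0.05 it was 1 member, Vwf, beside 1363 of the 13865 tested genes. DESeq2 gave an adjusted p for this difference to 5532 genes, fewer than limma. It called Vwf alone among the members, where 1.83% of those genes passed. Without LCHADD male 1 the count in males was 6, and without WT male 2 it was 7. With LCHADD female 2 and WT female 3 left out together, 25 members fell in the mean of both sexes, 14 in females and 15 in males.

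Tek fell in females, at -0.74 ± 0.09 (adjusted p = 1.9e-05), and in males, at -0.57 ± 0.09 (adjusted p = 6.0e-04). Pecam1 fell by 0.47 ± 0.06 in females (adjusted p = 5.9e-05) and by 0.34 ± 0.06 in males (adjusted p = 0.0026), and Cdh5 by 0.37 ± 0.08 in females (adjusted p = 0.0027) and by 0.41 ± 0.08 in males (adjusted p = 0.0035). Kdr was at -0.19 ± 0.10 in females and -0.09 ± 0.10 in males, and neither value passed. All 3 LCHADD libraries lay below all 3 WT libraries for 23 members in females, beside 22.3% of all tested genes, and for 17 in males, beside 19.3%.

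**Figure D3:**
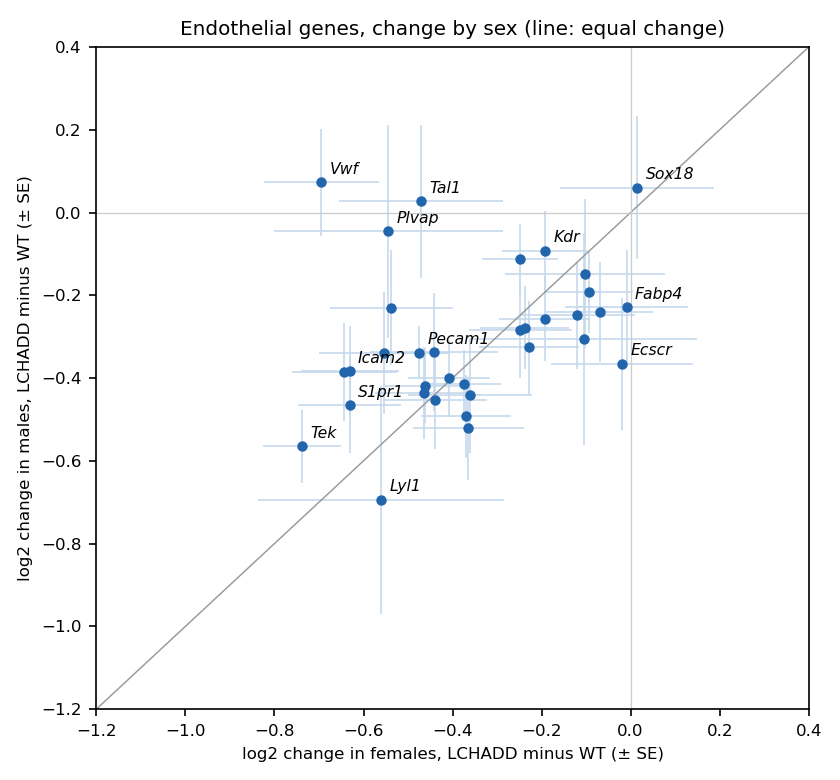
Log2 change of each of the 34 endothelial genes, LCHADD minus WT, in females on the x axis and males on the y axis, with bars of ± 1 SE; the diagonal marks equal change. Tek is lowest in females at -0.74, Vwf stands above the diagonal at -0.69 in females and 0.07 in males, and 31 genes lie below 0 in both sexes.

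Vascular ligands and related genes, not all of which act on the receptors above, were examined in a list of 17 genes. Of these, 16 were tested, 9 fell and 1 rose (median log2 change -0.26), where 20.6% of all tested genes fell and 20.3% rose. Angpt1, the ligand that activates Tek and a gene named after its values were seen, had 227, 76.7 and 303 normalised reads in LCHADD females and 159, 198 and 217 in LCHADD males, against 402, 461 and 608 in WT females and 373, 440.2 and 489 in WT males. No LCHADD library reached the lowest WT library, and the log2 change was -1.32 ± 0.24 (adjusted p = 5.5e-04). Angpt2, which can oppose Angpt1 at Tek, averaged 81.5 ± 21.5 normalised reads in LCHADD ventricles and 67.7 ± 9.39 in WT ventricles (SD, n = 6 each), and its change of 0.24 ± 0.14 did not pass (adjusted p = 0.2). The ratio of Angpt1 to Angpt2 reads, also chosen after the values were seen, was 1.18 to 3.92 in LCHADD libraries and 4.79 to 11.5 in WT libraries, without overlap.

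Vegfa, the main ligand of Kdr, averaged 3290.0 ± 331 normalised reads in LCHADD ventricles and 3447 ± 291 in WT ventricles (SD, n = 6 each), and its change of -0.07 ± 0.06 did not pass (adjusted p = 0.41). Vegfb and placental growth factor (Pgf), which bind Flt1, fell, Vegfb with 3309 ± 234 in LCHADD and 4175 ± 135 in WT and a change of -0.34 ± 0.05 (adjusted p = 5.5e-05), and Pgf with 26.0 ± 6.35 in LCHADD and 55.5 ± 11.6 in WT and a change of -1.08 ± 0.18 (adjusted p = 2.9e-04). Apelin (Apln), a peptide ligand of endothelium, averaged 155 ± 89.5 in LCHADD and 340.1 ± 46.0 in WT, a change of -1.40 ± 0.21 (adjusted p = 9.6e-05). By sex, its change was -2.07 ± 0.30 in females (limma adjusted p = 9.8e-05) and -0.73 ± 0.30 in males, where it did not pass (adjusted p = 0.12). The difference between the sexes did not pass for Apln (limma adjusted p = 0.32). The gene that rose was Angptl4, an inhibitor of lipoprotein lipase at the capillary wall, named after its values were seen. It had 375, 381 and 474 normalised reads in LCHADD females and 304, 301 and 362 in LCHADD males, against 27.4, 54.6 and 363 in WT females and 129, 49.3 and 38.1 in WT males. WT female 3 was the only WT library within the LCHADD range, and the change was 2.32 ± 0.46 (adjusted p = 8.6e-04).

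**Figure D4:**
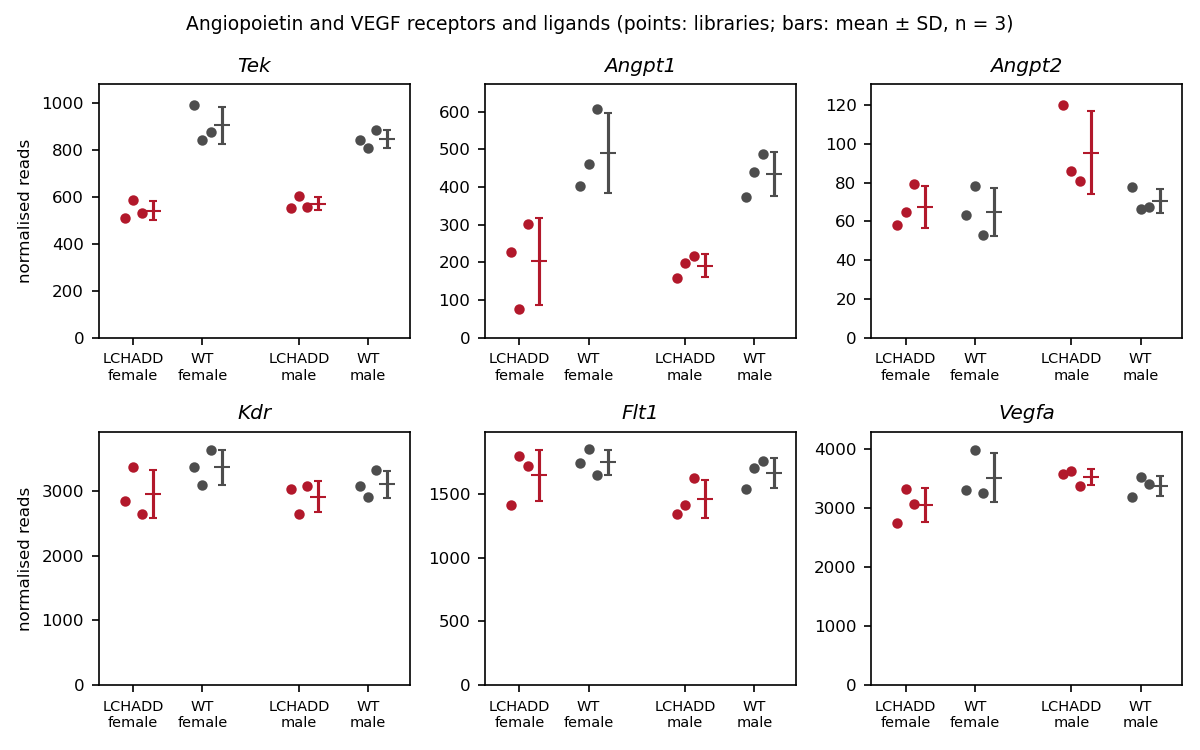
Normalised reads of the receptors Tek, Kdr and Flt1 and the ligands Angpt1, Angpt2 and Vegfa in each library, with the mean ± SD of each group of 3 beside the points. Red marks LCHADD and grey WT, females left and males right; Tek and Angpt1 separate the genotypes in both sexes, and Kdr, Flt1 and Vegfa overlap in at least one sex.

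Other receptors of the same families were lower as well. Of 12 further receptors, 7 fell and 1 rose, with a median log2 change of -0.30, where 20.6% of all tested genes fell and 20.3% rose. Nrp1, a co-receptor of Kdr, fell to 1159 ± 146 normalised reads in LCHADD ventricles, against 1665 ± 125 in WT ventricles (log2 change -0.53 ± 0.06, adjusted p = 7.2e-06). Plxnd1, a semaphorin receptor, fell by 0.36 ± 0.05 on the log2 scale (adjusted p = 3.2e-05), and Tgfbr2, a receptor for transforming growth factor beta, by 0.42 ± 0.07 (adjusted p = 1.5e-04). Bmpr2 was at -0.03 ± 0.05 and did not pass (adjusted p = 0.72), and the gene that rose, named after its value was seen, was the endothelin receptor Ednrb, at 0.38 ± 0.09 (adjusted p = 0.0041).

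Endothelial Notch and flow-responsive genes fell in 10 of 11 cases, with a median log2 change of -0.46, where 20.6% of all tested genes fell. Jag2, a Notch ligand, averaged 381 ± 20.0 normalised reads in LCHADD ventricles and 615 ± 52.7 in WT ventricles (SD, n = 6 each), a change of -0.69 ± 0.07 (adjusted p = 1.7e-06). Klf2, a factor induced by shear stress, averaged 227 ± 50.1 in LCHADD and 503 ± 184 in WT, a change of -1.10 ± 0.15 (adjusted p = 2.9e-05), and Hey2, a target of Notch, averaged 49.9 ± 5.10 in LCHADD and 97.0 ± 17.4 in WT, a change of -0.93 ± 0.14 (adjusted p = 7.9e-05). Hey1 was the exception, at -0.27 ± 0.14 (adjusted p = 0.13). A list of 24 further endothelial genes gave 17 falls and 0 rises, with a median of -0.29, beside the same 20.6% of all tested genes. It included Bcl6b, a transcriptional repressor, at -0.89 ± 0.10 (adjusted p = 5.6e-06), Adgrf5, an adhesion G protein-coupled receptor, at -0.53 ± 0.07 (adjusted p = 2.1e-05), and Podxl, a sialomucin of the luminal surface, at -0.37 ± 0.06 (adjusted p = 1.3e-04). Gpihbp1, which holds lipoprotein lipase on capillaries, did not pass, at -0.17 ± 0.11 (adjusted p = 0.23).

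Genes that mark vessel types had a negative median log2 change in each list, in the mean of both sexes, where 20.6% of all tested genes fell. Of 10 arterial genes 5 fell (median -0.39), with Dll4 at -0.57, Sema3g at -0.44 and the connexin gene Gja5 at -0.57, while Unc5b at -0.07 did not pass. Of 7 capillary genes 4 fell (median -0.31), with the potassium channel gene Kcna5 at -0.74, Cd300lg at -0.31 and Timp4 at -0.60. All 3 tested venous genes fell (median -0.37), among them Ephb4 at -0.37. Of 6 tested lymphatic genes 5 fell (median -0.46), with Lyve1 at -0.64, Flt4 at -0.36 and Mmrn1 at -0.47, and of 6 endocardial genes 3 fell (median -0.30), with Nfatc1 at -0.42 and Npr3, at 0.08, not passing. Each of these values is a log2 change in the mean of both sexes, some genes stand in more than 1 list, and the differences between lists were not tested. By sex, 3 endocardial genes fell in females (median -0.47) and 0 in males (median -0.06). Arterial genes gave 5 falls in females and 2 in males, and capillary genes 1 in each sex. Over all tested genes, 17.2% fell in females and 7.77% in males. The difference between the sexes passed for no endocardial, arterial or capillary gene in limma.

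**Figure D5:**
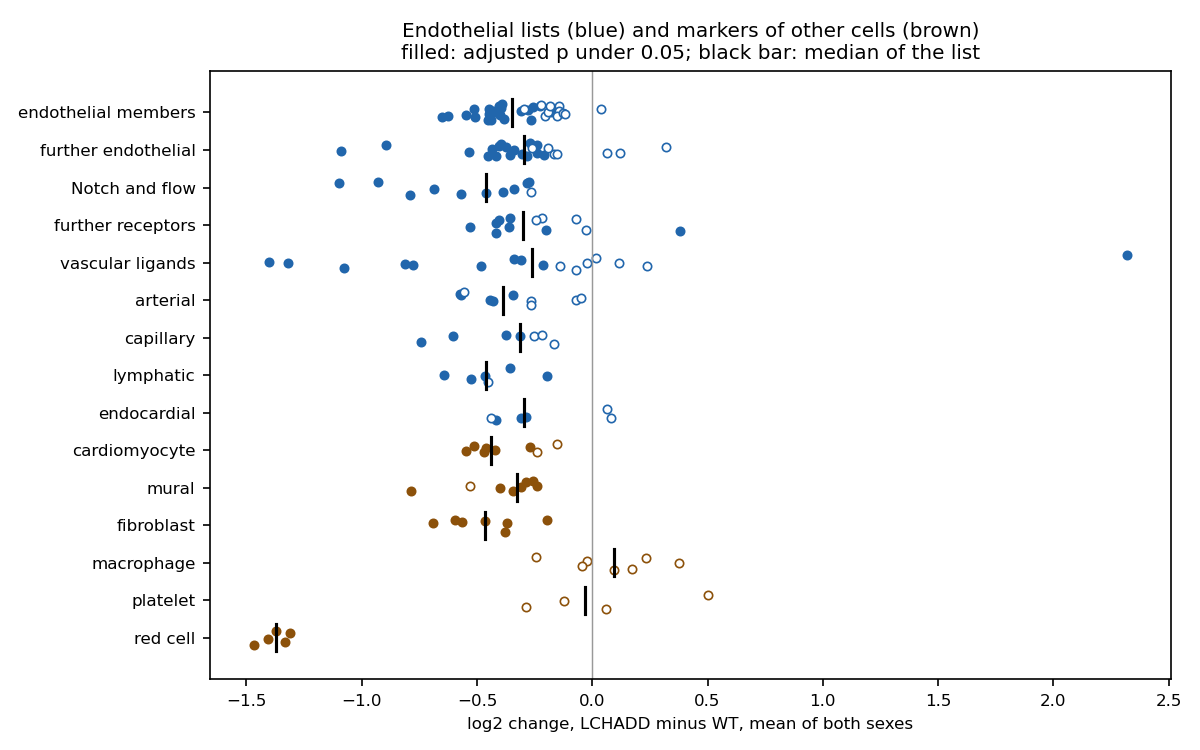
Log2 change of each gene, LCHADD minus WT in the mean of both sexes, by list; blue lists are endothelial or vascular and brown lists are markers of other cells. Filled points passed at an adjusted p under 0.05, open points did not, and the black bar is the list's median, at -0.35 for the 34 endothelial members, -0.44 for cardiomyocyte, 0.09 for macrophage and -1.37 for red cell markers.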

How the data were processed

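The 12 libraries fall into 4 groups of 3 by genotype and sex, as their labels give them; no batch is given. Per the submitters' processing notes, bcl2fastq and DESeq2 were used with genome build GRCm39; aligner, counter and strand setting were not given in the sources used here. Deposited values are a signal, gene counts that the authors divided by 1 size factor per library, and 100% of the values of each library gave whole reads (tolerance 0.01). Of 51912 gene IDs, 51633 matched a symbol in GENCODE vM21. The rows were tested with limma 3.58.1 in R 4.3.3 on log2(value + 1), a scale that understates changes of low genes, in 1 fit of 4 group means over 13865 genes, with two-sided tests and Benjamini-Hochberg adjustment over all of them. Called changes had an adjusted p under 0.05. Alternatives were edgeR 4.0.16 and DESeq2 1.42.0 on the recovered reads (edgeR called 2881 genes lower and limma 2853), other added values, filters and scalings, a replicate block, 1 sex alone and libraries left out. All 34 members could be named; library values are given, within each role, for the 3 passing members of smallest adjusted p and the 2 of highest level that failed, and from other lists up to 3 passing genes and 1 failing gene are named. The members and lists were chosen with earlier results of these data known. Scripts were tested on simulated data. Exon lengths come from GENCODE vM21 and promoters from RefSeq, where 16 members had no entry. A result on 1 gene of the clotting and vessel tone list is not reported here.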

Additional observations from a re-analysis of the deposited data

Results flagged for a closer look

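The change of Vwf differed between the sexes in DESeq2 but did not pass in limma: the log2 change (LCHADD minus WT) came to -0.69 in females and 0.07 in males, a difference of -0.77 (unadjusted p = 0.00074; limma adjusted p = 0.18 over all tested genes). In edgeR the adjusted p was also 0.18. In DESeq2 it was 0.0103, adjusted over 5532 genes where limma adjusted over 13865. Without LCHADD female 2 and WT female 3 the difference was -0.93 and passed (limma adjusted p = 0.046). WT female 3 had the fewest Vwf reads of the WT females, at 1134 against 1436 and 1473, so leaving it out widens the fall in females. Over the tested genes WT female 3 did not stand apart, at a root mean square log2 difference of 0.35 from the mean of its group mates. The value was 0.54 for LCHADD female 2 and 0.47 for LCHADD female 3. Leaving out 1 library at a time gave limma adjusted p-values of 0.061 to 0.45. Without LCHADD male 2, the library with the most Vwf reads, the difference was -0.61 and the change in males was -0.081. All 3 LCHADD females lay below all 3 WT females.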

How the results depend on the processing

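Over 23 alternatives, 21 to 25 members fell in the mean of both sexes and 0 rose. Of the 23 members that fell, 20 passed under every one of these alternatives; Eng and Emcn did not pass in 5 each and Lyl1 in 2, and Kdr and Flt1 passed in 2 each and Myct1 in 1. In females 14 to 19 fell and in males 6 to 15, with 6 without LCHADD male 1 and 7 without WT male 2. EdgeR and DESeq2 each called 23, 17 and 13 members in the mean of both sexes, females and males. Leaving out one library at a time moved the members' median log2 change between -0.39 and -0.32; with scaling by nuclear genes it was -0.31, where the scaling itself moved the median of all genes to 0.04. The sex difference passed for 1 member, Vwf, in DESeq2 and for 1 with LCHADD female 2 and WT female 3 left out. Signs turned for values that passed nowhere: with those libraries left out Fabp4 was at 0.0049 and Sox18 at -0.077; leaving out one library, Sox18 ranged from -0.076 to 0.11 and Vwf in males from -0.081 to 0.16. The cause of these changes was not tested. With replicate numbers as a block, 23, 17 and 13 members fell and 0 differed between the sexes. Between LCHADD and WT libraries of a sex, same-numbered pairs had correlations of -0.054 to 0.031 and other pairs -0.042 to 0.066. No pairing by number was seen, and deviations from means of 3 libraries cannot exclude one. At these read depths the low genes Lyl1, Tal1 and Sox17 had the widest errors among the transcription factors.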

Other observations

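Many genes of clotting and vessel tone were also lower. Of 11, 7 fell (median log2 change -0.38), where 20.6% of all tested genes fell and 20.3% rose. Nos3 and Vwf stand in this list. Ece1, which makes active endothelin, averaged 1015 ± 130.4 normalised reads in LCHADD ventricles and 1401 ± 26.0 in WT ventricles (SD, n = 6 each), a change of -0.47 ± 0.05 (limma adjusted p = 2.0e-06). Thrombomodulin (Thbd), an anticoagulant receptor, was at -0.53 ± 0.08 (adjusted p = 8.3e-05) and Tfpi, the tissue factor inhibitor, at -0.40 ± 0.08 (adjusted p = 0.001). Endothelin (Edn1), at -0.42 ± 0.24, did not pass (adjusted p = 0.17). Of 5 tested genes of inflammatory activation, 1 fell in the mean of both sexes, Vcam1 at -0.43, and 0 rose. That fall is no more than the 20.6% share over all tested genes. Of 6 tested genes of sprouting cells, 4 fell and 1 rose, Esm1 (named after its value was seen) at 0.80 (adjusted p = 0.03). Cell division genes were sparse: 4 of 8 were tested and 0 passed.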
